A study of Mus musculus with 3 samples.

Results

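The genes described here are 34 markers of macrophages, microglia and other myeloid cells, taken from the 46983 genes of a bulk RNA-sequencing count table. They were chosen by gene symbol, as pan-leukocyte, pan-myeloid, border macrophage, microglia and monocyte genes, after earlier results of the same table had shown that macrophage transcripts differed between its libraries. Their levels and their differences between libraries are therefore given as a description. The table held 3 libraries of 1 group: cells of the mouse pia-enriched fraction, obtained from microdissected and dissociated leptomeninges of vehicle-treated mice and sorted by flow cytometry. The labels give neither the vehicle's purpose nor strain, sex, age, sorting gate or pooling of animals. Nothing in the labels says that the libraries came from separate mice, so a p-value below measures only the spread between these samples, which may be technical.

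The leptomeninges are the inner membranes of the brain, built by fibroblasts and populated by resident macrophages. These border macrophages share the growth factor receptor Csf1r with microglia, the macrophages of the brain tissue itself, and both survive on its ligands Csf1 and Il34. Border macrophages are known for scavenger and lectin receptors such as Mrc1, Cd163, Stab1 and Lyve1, whereas microglia are known for P2ry12, Tmem119, Siglech and the transcription factor Sall1. Monocytes that enter from the blood carry Ly6c2 and Ccr2. Because several of these genes are also transcribed outside the myeloid lineage, the list was read gene by gene.

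Gene counts came to between 21002860 and 28704952 per library. Levels are given in CPM, counts relative to library size, on sizes scaled by the trimmed mean of M values (TMM), on which 3 counts, the most that a count of 0 allows, are 0.152, 0.101 and 0.116 CPM in libraries 1, 2 and 3. Library 1 stood apart from the other two before any myeloid gene was considered. Mitochondrially encoded genes took 0.918% of its gene counts, against 3.60% and 3.46% in libraries 2 and 3, and 45.6% of its table total lay outside genes, against 39.1% and 39.6%. Values are therefore given for each library, and the comparison of library 3 with library 2, which leaves library 1 out, is given separately. In bulk RNA, fewer cells of a type and less RNA per cell cannot be told apart.

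Most myeloid genes were close to absent in library 1 and clearly present in libraries 2 and 3. Of the 34 members, 28 were lowest in library 1, where 42.2% of all genes with a mean of at least 10 counts were lowest too. Of the 28, 27 were also higher in library 3 than in library 2, an order of libraries that 18.1% of those genes had. On the log2(CPM + 1) scale, which understates the difference of low genes, 21 members lay at least 2 below the mean of libraries 2 and 3 in library 1. That distance was reached by 1.85% of the 16392 genes with a mean of at least 10 counts. The median difference was -2.51 over the members and -0.04 over those 16392 genes. In library 1, 8 members had at most 3 counts, and 4 of them (Adgre1, Fcgr3, Cybb and Siglech) had 0.

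**Figure D1:**
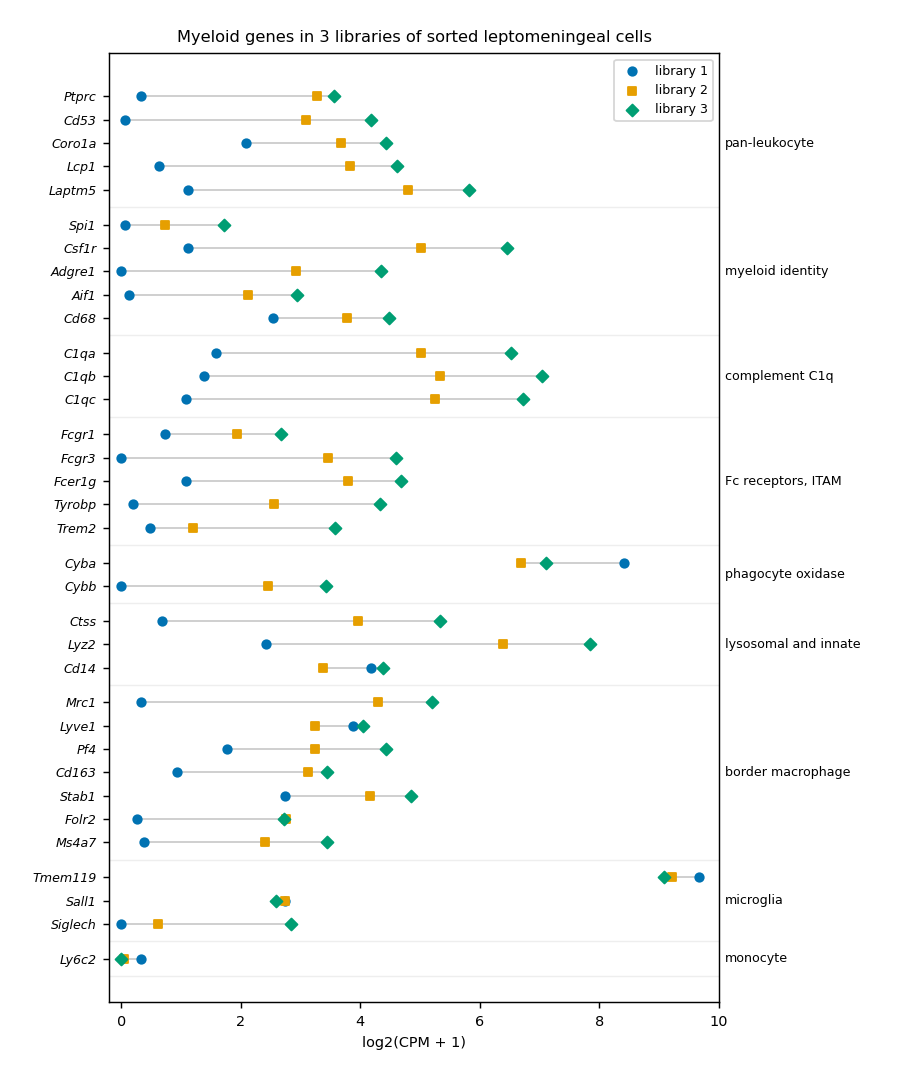
Level of each of the 34 members, as log2(CPM + 1) on the x axis, in library 1 (circles), library 2 (squares) and library 3 (diamonds), with grey lines spanning the 3 libraries. The circle lies leftmost for 28 genes; Cyba, Cd14, Lyve1, Tmem119, Sall1 and Ly6c2 are the other 6.

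The goodness-of-fit test of edgeR asks whether a gene varies between the libraries by more than genes of like abundance. It needs a gene to pass a filter on low counts in all 3 libraries, and 20 of the 34 members passed it. Of these 20, 9 were called at an adjusted p under 0.05, namely C1qa, C1qb, C1qc, Csf1r, Lyz2, Laptm5, Ctss, Lcp1 and Fcer1g. Over all 14409 genes tested, 0.437% were called. The remaining 14 members did not pass it: 13 of them had at most 8 counts in library 1 and more in both other libraries, and Ly6c2 was near 0 throughout. With a filter on the mean count instead, 33 members were tested and 20 were called, where 1.11% of all genes were called. The list had been drawn up with this difference known, so nothing further is read from these counts. Without library 3 the number called was 5, and the same 9 were called without library 2. Without library 1 it was 2, C1qb and Trem2, where 0.175% of all genes were called.

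**Figure D2:**
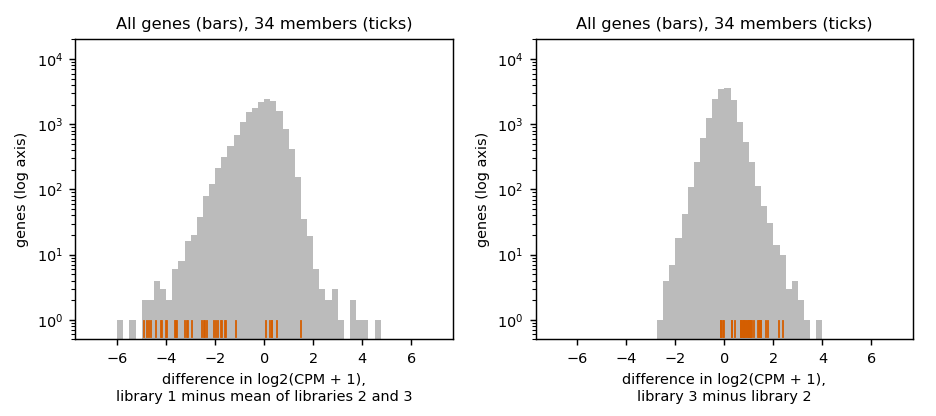
Bars count all 16392 genes with a mean of at least 10 counts by their difference in log2(CPM + 1), on a log axis; ticks mark the 34 members. Left, library 1 minus the mean of libraries 2 and 3, where the members' median is -2.51; right, library 3 minus library 2, where it is 0.98.

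The 3 genes of complement C1q encode the chains of the recognition molecule that starts the classical complement cascade, which in the brain comes mainly from macrophages and microglia. They stand next to each other on the minus strand of chromosome 4 in GRCm38: C1qb from 136880129 to 136886187, C1qc from 136889804 to 136893065 and C1qa from 136895917 to 136898803. C1qa was at 2.02, 31.4 and 90.5 CPM in libraries 1, 2 and 3, C1qb at 1.62, 39.2 and 130.1 CPM, and C1qc at 1.11, 36.9 and 105 CPM. The libraries therefore kept the same order in all 3 genes, with library 1 far below the others. Each was called by edgeR's goodness of fit (Benjamini-Hochberg adjusted p = 3.895e-07 for C1qa and 1.32e-09 for C1qb and C1qc). Relative to library 2, library 3 held 2.88 times as much C1qa (95% exact interval 2.67 to 3.11), 3.32 times as much C1qb (3.11 to 3.55) and 2.85 times as much C1qc (2.66 to 3.06). PCR copies of 1 molecule could not be recognised without molecular identifiers, so these intervals and the level set for a count of 0 cover counting error only.

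Among the genes of myeloid identity, Csf1r (ENSMUSG00000024621.15), the receptor on which macrophages depend for survival, was at 1.16, 31.5 and 86.9 CPM in libraries 1, 2 and 3 (edgeR adjusted p = 1.103e-08). Adgre1, which encodes the macrophage surface protein F4/80, had 0 counts in library 1 and was at 6.59 and 19.4 CPM in libraries 2 and 3. Against a count of 3 in library 1, it was at least 43.5-fold higher in library 2 and at least 128-fold higher in library 3. Aif1, which encodes the actin-binding protein IBA1, was at 0.101, 3.36 and 6.71 CPM. The lysosomal membrane protein Cd68 was less uneven, at 4.80, 12.7 and 21.2 CPM, and was not called (edgeR adjusted p = 0.6348). Spi1, which encodes PU.1, the master transcription factor of the lineage, was low throughout, with 1, 20 and 60 counts or 0.0505, 0.672 and 2.31 CPM.

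The pan-leukocyte genes followed the same order of libraries. Laptm5, a lysosomal membrane protein of blood cells, was at 1.16, 26.7 and 55.5 CPM (edgeR adjusted p = 2.594e-06). Lcp1, the leukocyte actin-bundling protein L-plastin, was at 0.556, 13.2 and 23.6 CPM (edgeR adjusted p = 5.646e-04). Ptprc, the leukocyte common antigen CD45, was at 0.253, 8.64 and 10.8 CPM, and its level in library 3 was 1.26 times that in library 2 (interval 1.06 to 1.49), the smallest ratio of the 5 genes. The tetraspanin Cd53 had 1 count in library 1 and lay at 7.53 and 17.2 CPM in the others. Coro1a, an actin regulator of haematopoietic cells, was at 3.23, 11.8 and 20.5 CPM and was called only after trends with base composition and length had been removed (adjusted p 0.3617 before, 0.0212 after). These genes mark leukocytes in general and do not separate myeloid cells from lymphocytes.

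Immunoglobulin Fc receptors and the adaptors that carry their signal formed the next group. Fcer1g, the common gamma chain, was at 1.11, 12.9 and 24.5 CPM (edgeR adjusted p = 0.007994), and Tyrobp, the adaptor DAP12, at 0.152, 4.87 and 19.1 CPM. Fcgr3, a low-affinity receptor for IgG, had 0 counts in library 1 and was at 10.0 and 23.1 CPM in libraries 2 and 3. Its close relative Fcgr4 had 0, 10 and 35 counts, so reads common to these receptors may be split. The high-affinity receptor Fcgr1 was at 0.657, 2.82 and 5.36 CPM. All 5 members of the group were lowest in library 1, where 42.2% of all genes with a mean of at least 10 counts were. Trem2, a lipid-sensing receptor that signals through Tyrobp, differed most between libraries 2 and 3, with 8, 39 and 285 counts in the 3 libraries. Its level in library 3 was 8.39 times that in library 2 (interval 5.99 to 12.0), whereas Fcgr3 and Fcer1g showed 2.31 and 1.91 times. In the fit of libraries 2 and 3 alone, Trem2 passed the threshold (edgeR adjusted p = 0.02715) and Tyrobp did not (0.143).

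The lysosomal and innate genes split. Lyz2, the lysozyme of myeloid cells, was the most abundant of the strongly uneven members, at 4.35, 82.4 and 230.0 CPM (edgeR adjusted p = 2.636e-09). Its near-identical neighbour Lyz1 had 0, 1 and 7 counts, so reads shared by both may be missing from these values. Ctss, a cysteine protease, was at 0.606, 14.5 and 39.5 CPM (edgeR adjusted p = 5.163e-06). Cd14, the endotoxin co-receptor, was by contrast at 17.2, 9.38 and 19.8 CPM, so library 1 lay between the others. The phagocyte oxidase gave a similar split within 1 enzyme. Cybb, its catalytic subunit, had 0, 134 and 254 counts, while Cyba, the partner subunit that non-phagocytic oxidases also use, was at 338, 102 and 137 CPM and highest in library 1. Neither Cyba nor Cd14 passed the test (edgeR adjusted p = 0.3686 and 0.9997).

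Promoter sequence is shown for 5 members that carry the results, C1qb, Lyz2 and Fcer1g among the called genes, Mrc1 for border macrophages and Trem2 for the difference between libraries 2 and 3. Each stretch is the 150 bases before the more upstream of the RefSeq and GENCODE starts, 5′ to 3′ on the gene's strand, from RefSeq's table for GRCm38.p6. Capitals mark AGGAAG or its reverse complement CTTCCT, a purine-rich run of the kind bound by PU.1 and other ETS factors.
C1qb (chr4:136886201-136886350, minus strand): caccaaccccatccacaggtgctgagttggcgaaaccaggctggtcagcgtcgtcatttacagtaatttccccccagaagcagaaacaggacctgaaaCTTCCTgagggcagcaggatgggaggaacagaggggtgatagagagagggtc
Lyz2 (chr10:117282322-117282471, minus strand): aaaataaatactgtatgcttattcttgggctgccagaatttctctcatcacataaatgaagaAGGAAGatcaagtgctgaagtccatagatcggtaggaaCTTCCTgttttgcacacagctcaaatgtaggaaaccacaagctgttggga
Fcer1g (chr1:171234366-171234515, minus strand): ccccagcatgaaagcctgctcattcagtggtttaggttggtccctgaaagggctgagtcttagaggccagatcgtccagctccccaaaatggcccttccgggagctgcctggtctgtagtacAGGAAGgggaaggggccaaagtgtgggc
Mrc1 (chr2:14229242-14229391, plus strand): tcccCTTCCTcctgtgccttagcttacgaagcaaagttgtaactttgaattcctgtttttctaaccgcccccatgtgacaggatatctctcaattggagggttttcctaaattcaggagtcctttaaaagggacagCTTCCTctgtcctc
Trem2 (chr17:48346251-48346400, plus strand): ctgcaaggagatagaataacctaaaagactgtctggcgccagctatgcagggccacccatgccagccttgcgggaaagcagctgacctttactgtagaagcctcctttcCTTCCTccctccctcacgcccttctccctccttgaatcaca

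RefSeq's table held promoters of 26 of the 34 members, 35 sequences in all. AGGAAG on either strand stood within 150 bases before the RefSeq start in 17 of these 35 (48.6%), against 19.7% of all 32851 promoters in the table. Members with a match included Ptprc, Laptm5, Pf4, Stab1 and Folr2, and those without one included Ctss, Cd53, Cd163, Siglech and Cyba. The longer run GAGGAAGT, which contains AGGAAG, was also searched, in 250 bases, and stood in 4 of the 35 (C1qc, Pf4 and both Ly6c2 starts were the genes matched) and in 2.44% of all promoters. A match is a description of these letters and shows no binding.

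Border macrophage genes were present in libraries 2 and 3, and 6 of the 7 members had the higher level in library 3. Their median difference between libraries 3 and 2 was 0.807 on the log2(CPM + 1) scale. Over the 16392 genes with a mean of at least 10 counts it was -0.005. Mrc1, the mannose receptor CD206, had 5, 554 and 929 counts, or 0.253, 18.6 and 35.8 CPM. The haemoglobin scavenger receptor Cd163 was at 0.909, 7.76 and 9.87 CPM, the folate receptor Folr2 at 0.202, 5.75 and 5.59 CPM, and the platelet factor 4 gene Pf4 at 2.43, 8.43 and 20.6 CPM. Stab1, a scavenger receptor that some endothelial cells share, was at 5.71, 16.9 and 27.9 CPM, and Ms4a7 was at 0.303, 4.30 and 9.87 CPM. Library 1 was the lowest for all 6, as for 42.2% of all genes with a mean of at least 10 counts. The ratio of library 3 to library 2 lay between 0.973 for Folr2 and 2.45 for Pf4, with a median of 1.84 over the 7 genes. By edgeR's goodness of fit, 0 of the 4 that passed the filter were called between the 3 libraries (3 at an unadjusted p under 0.05). Between libraries 2 and 3, 0 of 7 were called (2 unadjusted). Over all genes tested, 0.437% and 0.175% were called, so nothing is read from these counts of 0. With the filter on the mean count, Mrc1 and Ms4a7 were called, where 1.11% of all genes were. These genes entered that test through their counts in libraries 2 and 3, so nothing is read from these calls.

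Lyve1, a hyaluronan receptor of border macrophages and of lymphatic endothelium, did not follow the others. It was at 13.7, 8.43 and 15.5 CPM, so library 1 overlapped libraries 2 and 3 although Mrc1 was nearly missing from it. Markers of lymphatic endothelium were low. Mmrn1 had 19, 0 and 53 counts, Flt4 39, 9 and 11, Ccl21a 45, 1 and 7, and Prox1 3, 2 and 29. Mmrn1 was lowest in library 2, as Lyve1 was. Flt4 and Ccl21a were highest in library 1, and their counts in libraries 2 and 3 were too few to order these firmly. Prox1 had at most 3 counts in libraries 1 and 2, too few to order them. The summed level of the 4 genes of that list was 5.36, 0.403 and 3.86 CPM. Their part in the level of Lyve1 was not tested.

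A further list of 11 border macrophage genes was examined in the same way. In libraries 2 and 3, 10 of the 11 had more than 3 counts, and the other, Cd209d, had 0 in every library. Cbr2, a carbonyl reductase, and F13a1, the A chain of coagulation factor XIII, were the most abundant, at 5.66, 13.8 and 26 CPM and at 0.202, 18.6 and 25.8 CPM. The lectins Mgl2, Cd209f and Clec4n were at 4.54, 3.29 and 2.45 CPM in library 2 and at 9.76, 7.56 and 7.37 CPM in library 3. Ratios of library 3 to library 2 ran from 0.399 for Timd4 to 3.0 for Clec4n, with a median of 1.85. In the fit of libraries 2 and 3, edgeR called 0 of 9 tested genes of this list (1 at an unadjusted p under 0.05). Over all genes that share was 0.175%, so nothing is read from this count. With the filter on the mean count, the 3-library fit called F13a1, Mgl2, Cd209f and Clec4n. All of them entered that fit through their counts in libraries 2 and 3, so nothing is read from these calls.

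The microglia members did not behave as a set. Tmem119 was the most abundant of all 34 members, at 809, 596 and 544 CPM, and highest in the library with the fewest other myeloid transcripts. Sall1 was level, at 5.66, 5.68 and 5.01 CPM (5.45 ± 0.379, SD, n = 3). Tmem119 and Sall1 are also transcribed in mesenchymal cells, Tmem119 in bone-forming ones. Siglech, a sialic acid-binding lectin of microglia and plasmacytoid dendritic cells, had 0, 16 and 160 counts, and its level in library 3 was 11.5 times that in library 2 (interval 6.85 to 20.6). That difference missed the threshold in the fit of libraries 2 and 3 (edgeR adjusted p = 0.06873). The 3-library edgeR test with the filter on the mean count called Siglech (adjusted p = 0.002). Siglech entered that test through its counts in libraries 2 and 3, so nothing is read from this call. Of the plasmacytoid dendritic cell genes, Klk1 had 0, 0 and 2 counts, Cox6a2 23, 14 and 10, and Ccr9 2, 8 and 34.

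Most of the 9 further microglia genes were far higher in library 3 than in library 2. P2ry12, the ADP receptor that marks homeostatic microglia, was at 0.960, 1.61 and 23.1 CPM, a ratio of library 3 to library 2 of 14.3 (interval 10.7 to 19.7). The fractalkine receptor Cx3cr1 was at 1.21, 6.02 and 31.0 CPM, a ratio of 5.15 (4.37 to 6.09). P2ry13 and Gpr34, also receptors of microglia, stood at 1.78 and 1.71 CPM in library 2 and at 9.56 and 9.56 CPM in library 3. The sugar transporter Slc2a5 had 0, 10 and 65 counts. P2ry12 and Cx3cr1 were the genes of this list called in the fit of libraries 2 and 3 (edgeR adjusted p = 1.474e-05 and 0.01145). The Fc receptor-like gene Fcrls, which border macrophages express too, was at 0.101, 11.7 and 38.1 CPM, a ratio of 3.25.

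Olfml3, a secreted glycoprotein often listed for microglia, was abundant in every library, at 2683, 2005 and 1691 CPM. Like Tmem119, it was highest in library 1.

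**Figure D3:**
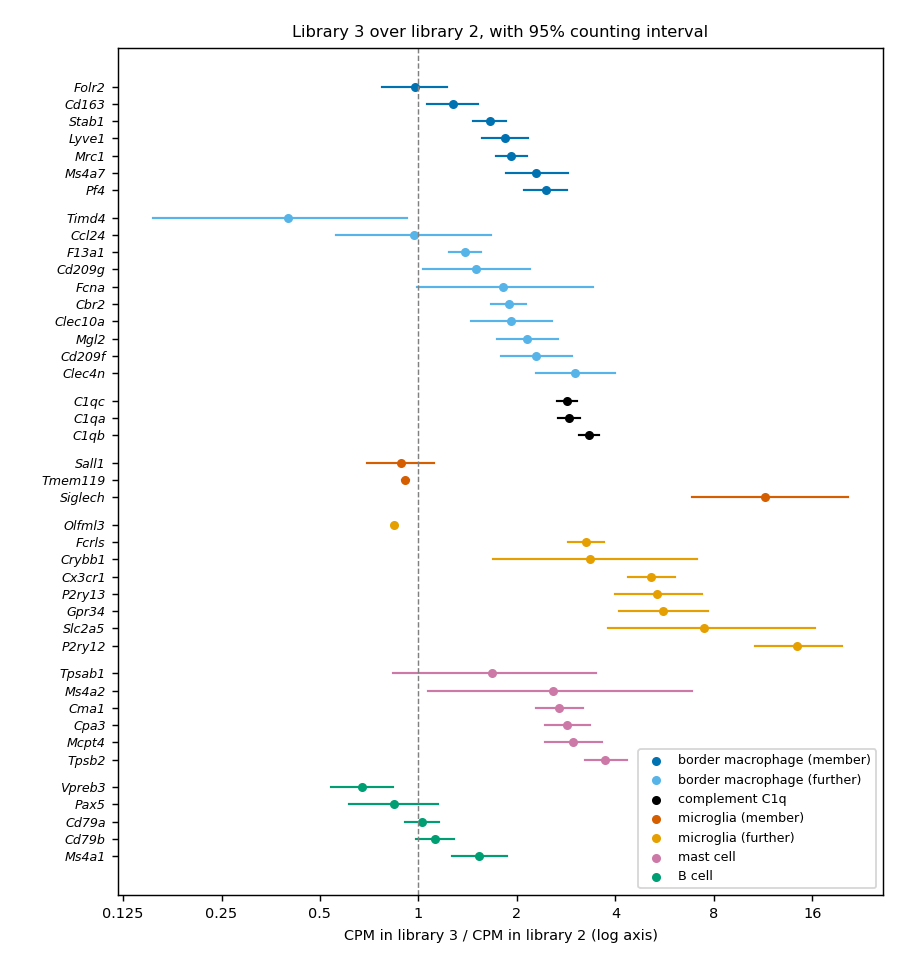
Ratio of CPM in library 3 to CPM in library 2 on a log axis for the genes reported here with more than 3 counts in both, with 95% exact intervals for counting error; colours mark the lists and the dashed line a ratio of 1. Border macrophage genes reach 2.45 (members) and 3.0 (further list), the C1q genes lie between 2.85 and 3.32, and P2ry12, Siglech, Slc2a5, Gpr34, P2ry13 and Cx3cr1 lie above 5.

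The ratio between libraries 2 and 3 differed from gene to gene in these libraries. The counting interval of Mrc1 (1.73 to 2.14) did not overlap those of C1qb (3.11 to 3.55), Cx3cr1 (4.37 to 6.09), Trem2 (5.99 to 12.0) or P2ry12 (10.7 to 19.7). Csf1r, which both macrophage types express, had a ratio of 2.76 (2.56 to 2.98), between those of Mrc1 and Cx3cr1. Over all members the median difference between libraries 3 and 2 was 0.98 on the log2(CPM + 1) scale, and -0.01 over the 16392 genes. In all, 16 of 34 members were at least 1 higher in library 3, a distance that 3.06% of all genes reached. The genes set side by side were picked after their ratios were seen, the intervals hold no error between replicates, and the difference in ratio between lists was not tested.

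Levels of different genes were compared per kilobase of exon. The median log2(CPM per kb + 1) of the 7 border macrophage members was 0.22, 1.96 and 2.21 in libraries 1, 2 and 3, and that of the further border list 0.02, 0.95 and 1.48. The 3 microglia members gave 1.05, 1.06 and 1.5, and the 9 further microglia genes 0.34, 0.86 and 2.98. Border minus microglia members was thus -0.83 in library 1, 0.90 in library 2 and 0.71 in library 3, a mean of 0.26 ± 0.95 (SD, n = 3) that the spread between libraries exceeds. With both lists of each type pooled, it was -0.30, 0.45 and -0.68, so library 3 changed side. In library 2, border macrophage genes were the higher set both ways. With a list's mean in place of its median, however, which Tmem119 lifts, the difference was -2.34, -1.17 and -0.94, so border macrophage genes were the lower set in every library. In library 3 the order depended on the genes taken, and library 1 held too little of either type to set them in order.

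**Figure D4:**
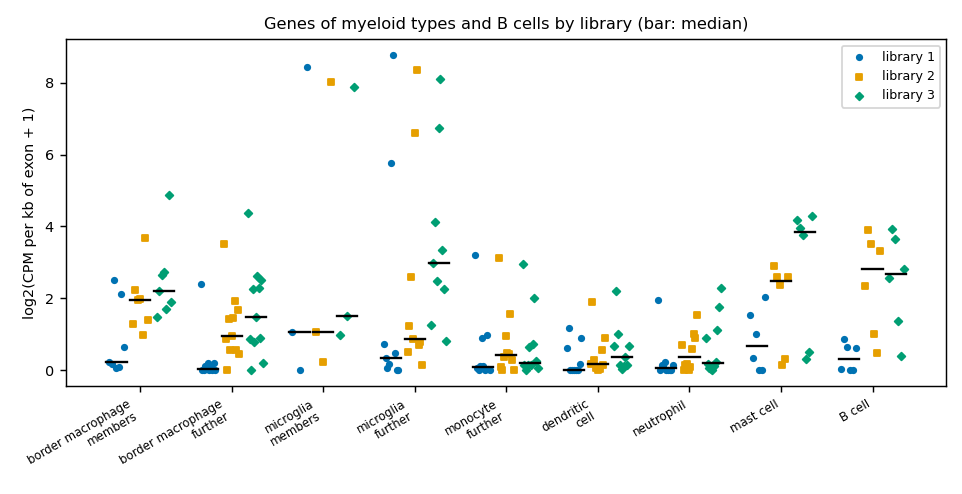
Each point is 1 gene's level, log2(CPM per kb of exon + 1), in library 1, 2 or 3, grouped by list, with the list's median as a bar. The further microglia list has a median of 0.34, 0.86 and 2.98 in the 3 libraries and the border macrophage members 0.22, 1.96 and 2.21.

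Monocyte genes gave little signal. Ly6c2, the only monocyte gene among the members, had 5, 1 and 0 counts; its near-identical relative Ly6c1, which endothelial cells express, had 167, 323 and 581 counts, so reads shared by both may have been lost. Of 10 further monocyte genes, Chil3 had 0 counts in every library, and Ccr2, the chemokine receptor of inflammatory monocytes, had 4, 13 and 16. Plac8 was at 1.52, 3.13 and 4.78 CPM. The most abundant gene of the list, Ace, was at 43.6, 40.5 and 35.6 CPM and is also an endothelial and epithelial enzyme. The summed level of the list was 47.5, 50.8 and 45.0 CPM, nearly all of it from Ace. Border macrophage minus monocyte members was 0.10, 1.94 and 2.21 per library on the log2 per-kilobase scale. With both lists of each type pooled, it was -0.002, 1.03 and 1.91.

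Other myeloid types were low, with mast cells as the exception. Of 10 neutrophil genes the most abundant were Camp (2.17, 0.470 and 0.656 CPM) and S100a9 (0.0505, 0.975 and 2.01 CPM), and Ly6g had 3, 0 and 0 counts. Of the dendritic cell list, Flt3 had 0, 0 and 2 counts, Clec9a 0, 3 and 8, and Itgax 0, 3 and 11, while Zbtb46 (7.22, 7.19 and 5.09 CPM) and Ccr7 (2.48, 5.31 and 7.13 CPM) were the most abundant. Mast cell proteases were present: Tpsb2 was at 4.90, 7.93 and 29.6 CPM and Cpa3 at 0.404, 7.66 and 21.9 CPM. Of all genes with a mean of at least 10 counts, 18.1% rose in the order of libraries 1, 2 and 3. All 6 mast cell genes did so, lowest in library 1 and highest in library 3. Their ratios of library 3 to library 2 lay between 1.68 and 3.73. Between these libraries edgeR called 0 of 5 tested (4 at an unadjusted p under 0.05), where 0.175% of all genes were called. Tpsb2 was nearest in that edgeR fit, at an adjusted p of 0.09325.

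Genes that act with the members were taken from 6 lists of pathway genes. Between the 3 libraries edgeR called 0 of 25 tested genes (6 at an unadjusted p under 0.05), where 0.437% of all genes were called. Of 14 further Fc receptors and signalling genes of immunoreceptors, 13 were lowest in library 1. Over all genes with a mean of at least 10 counts, that share was 42.2%. The inhibitory receptor Fcgr2b was at 3.64, 10.0 and 19.4 CPM, and Sirpa, which binds Cd47 and restrains phagocytosis, at 17.0, 20.3 and 29.3 CPM. Among the other oxidase subunits, Rac2 was at 0.202, 8.2 and 11.4 CPM and Ncf1 at 0.101, 1.08 and 5.51 CPM. The complement receptors C3ar1 and C5ar1 were at 0.253, 6.75 and 10.2 CPM and at 0.253, 4.03 and 6.56 CPM, and the integrin subunit Itgb2 at 1.47, 3.86 and 7.67 CPM. With the filter on the mean count, the genes called included Inpp5d, Rac2 and C3ar1.

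Of 10 transcription factors of the lineage, 3 were lowest in library 1. The share was 42.2% over all genes with a mean of at least 10 counts, so nothing is read from this count. Maf was at 42.1, 108 and 61.3 CPM and Nr1h3 at 57.8, 20.0 and 24.8 CPM. Ikzf1, a haematopoietic factor, had 0, 71 and 48 counts. Of the colony stimulating factor receptors, Csf2ra was level (2.53, 2.32 and 3.05 CPM) and Csf2rb was at 0.505, 1.88 and 4.01 CPM.

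Ligands that sustain or restrain macrophages were abundant in all libraries, including the one with few macrophage transcripts. Csf1 was at 74.4, 63.7 and 46.1 CPM (61.4 ± 14.3, SD, n = 3) and Il34 at 101, 52.3 and 73.7 CPM (75.7 ± 24.4, SD, n = 3). Both had their highest level in library 1, where their receptor Csf1r had its lowest, and neither passed the test. Cx3cl1, the ligand of Cx3cr1, was at 416, 234 and 744 CPM, and was called between libraries 2 and 3 (edgeR adjusted p = 0.03707) but not over the 3 libraries (0.5601). Cd200, which restrains myeloid cells through Cd200r1, was at 87.8, 106 and 153 CPM, and its receptor had 0, 24 and 25 counts.

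Outside all lists, the 15 genes nearest in profile to the 15 members that passed the filter and were lowest in library 1 were sought by distance between log2(CPM + 1) deviations over 3 libraries. The nearest was Pld4, an endolysosomal exonuclease of phagocytes, at 0.152, 9.68 and 16.9 CPM. Ly86, Siglec1 and Ms4a6b, genes of macrophages and related leukocytes, were also among them, with 3, 175 and 321, 0, 105 and 208, and 0, 111 and 189 counts. Siglecg, Ly6d and Irf4, genes of B-lineage cells among others, were found too. The other genes were Slco1c1, Slco1a4, Cdh19, Il13ra1, F5, Elovl7, Zfp52 and Zfp874a. Their distances ran from 0.192 to 0.750, over 3 libraries only, and many kinds of gene can share so short a profile.

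Of the markers of other cell types, choroid plexus epithelium and B cell genes were also lower in library 1 as lists. T and NK cell, blood endothelial and erythroid genes were not. Over all genes with a mean of at least 10 counts, 42.2% were lowest in library 1. All 8 choroid plexus epithelium genes were lowest in library 1, with a summed level of 127, 3308 and 5029 CPM, led by Ttr (32.6, 1594 and 2530 CPM) and Enpp2 (41.7, 1503 and 2237 CPM). All 6 B cell genes were lowest there too, with a summed level of 2.53, 64.8 and 69.8 CPM, led by Cd79a (1.21, 20.1 and 20.7 CPM) and Cd79b (0.808, 14.8 and 16.6 CPM). The median ratio of library 3 to library 2 was 1.07 for the B cell genes and 1.32 for the choroid plexus genes, beside 0.912 for the microglia members and 5.15 for the further microglia list. T and NK cell genes were near the level of 3 counts, with Trac the most abundant (4.04, 2.18 and 2.78 CPM) and Gzma and Ncr1 at 0 counts in every library. The 6 fibroblast genes had a summed level of 23470, 29100 and 25290 CPM. Of these, edgeR called 0 (adjusted p = 0.9997 for each, 0 at an unadjusted p under 0.05), where 0.437% of all genes were called. Col3a1 was nevertheless at 2154 CPM in library 1 against 4316 and 3907 CPM in libraries 2 and 3. Blood endothelial genes summed to 105, 85.9 and 112 CPM. None of 5 erythroid genes was lowest in library 1, where Hbb-bs, a globin gene, was at 507, against 114 and 209 CPM in libraries 2 and 3. Whether these other cells had a part in the myeloid values was not tested.

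The members' pattern was also examined against base composition. Library 1 departed from the others along a trend with GC content, and after trends with GC content and exon length had been removed, 28 members were still lowest in library 1 and the median difference was -2.50. C1qb, for instance, was then at 1.2, 49.1 and 136 CPM and Mrc1 at 0.338, 15.2 and 32.8 CPM. The call was kept by all 9 members, and Coro1a, Pf4 and Stab1 joined them, where 0.729% of all genes were called. Of the 34 members, 5 (Coro1a, Lcp1, Csf1r, Stab1 and Folr2) share exon sequence with an antisense gene; the counting's strand setting is not given in the sources used here, so reads of such pairs cannot be told apart.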

How the data were processed

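The deposited values were raw counts per gene, whole numbers with different totals in each library. Per the submitters' processing notes, the tools were HTSeq 0.5.3 and DESeq2 1.22.1 and the build was mm10; aligner and strand setting are not given in the sources used here. Per the labels' protocols, 2 ng of RNA was amplified over 12 cycles, and libraries were made from 10 ng of cDNA with 8 cycles of PCR and read as pairs of 50 bp. A label speaks of normalized values, but the table's were whole and unscaled. The 5 rows for reads given to no gene (45.6%, 39.1% and 39.6% of the table in libraries 1, 2 and 3) were left out. No column lacked a sample.

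Library sizes were scaled by TMM with edgeR 4.0.16 (R 4.3.3). With 1 group the quasi-likelihood test has no contrast, so an intercept-only model was fitted to the 14409 genes past filterByExpr (minimum count 10), and its goodness of fit at the trended dispersion was tested (chi-square, Benjamini-Hochberg, threshold 0.05). Ratios between libraries carry 95% exact (Clopper-Pearson) intervals, which cover counting error only and hold no spread between replicates. Exon lengths and coordinates come from GENCODE M21 on GRCm38, which is the assembly mm10. Genes were matched by symbol and handled by identifier; Itgam, on 2 rows, was taken by its GENCODE identifier. The test was also run on simulated counts with planted differences. The outcome is not reported here, so no support is drawn from it.

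The members and all lists were chosen with earlier results of these data known. The rule for naming genes took all members, the 2 most abundant genes of each other list, myeloid type genes at 0 in every library, and the 15 nearest profiles; other genes were named after their values were seen, and some genes of these lists are not reported here. Alternatives covered DESeq2 1.42.0 size factors, plain totals, trend removal, filters, dispersion, pseudocount, length, list summary and leaving out each library.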

Additional observations from a re-analysis of the deposited data

Results flagged for a closer look

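Reads that the table gave to no gene were a signal outside the measurements used here: they made up 41.4% of the table total as a mean over the 3 libraries, and their origin was not tested.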

How the results depend on the processing

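No paired analysis was possible because there was 1 group only. The 9 members called variable became 18 with no filter beyond 1 count and 20 with a mean count of at least 10, since both settings test genes nearly missing from library 1, and all 9 were among them. Leaving out each replicate gave 2 to 9. The other genes called, 54, became 93 after removal of GC content and length trends, 118 with no filter and 162 with the mean count filter, with a range of 8 to 25 without 1 replicate. Border macrophage minus microglia members, 0.26, turned to -0.034 without division by length, -1.48 with the mean over a list and -0.18 with both lists of each type, and was -0.061 to 0.81 with each replicate left out; its sign is thus not settled. Border macrophage minus monocyte members, 1.42, with Ly6c2 as the only monocyte gene, moved to 2.61 without division by length. It was 0.98 with both lists of each type and 1.02 to 2.07 with each replicate left out. The summed level of all members, 1385 CPM, was 1183 to 1504 with each replicate left out. It was 1218, 1147 and 1789 CPM in libraries 1, 2 and 3, and 408.5, 551.3 and 1246 CPM without Tmem119. Removal of the trends turned the difference between libraries 3 and 2 to -0.14 for Cd79a and -0.008 for Cd79b. Of 91 named genes, library 1 minus the others moved by more than the SD between libraries for 8 under trend removal, 2 under plain totals and 0 under DESeq2 size factors. Depth limits genes below 0.152 CPM in library 1.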

Other observations

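Genes of MHC class II, which antigen-presenting cells use to show peptides to T cells, were abundant in the library with few macrophage and B cell transcripts. Cd74, the invariant chain, was at 470.1, 460 and 844 CPM in libraries 1, 2 and 3, and H2-Aa at 210.5, 161 and 253 CPM. None of the 5 genes of the list was lowest in library 1, where 42.2% of all genes with a mean of at least 10 counts were. None passed edgeR's goodness-of-fit test (adjusted p of 0.9997 for Cd74 and H2-Aa). The lowest adjusted p of that test was 0.7525, for H2-Ab1. Over all genes tested, 0.437% were called, so nothing is read from the absence of calls. H2-Eb1 was at 107, 79.6 and 138 CPM, while Ciita, the transcriptional activator of these genes, was at 5.36, 5.65 and 2.01 CPM. These values stood beside 5 counts of Ptprc in library 1. Which cells of that library held the class II transcripts was not tested.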
